A study of Mus musculus with 15 samples.

Results

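The nuclear-encoded genes of the mitochondrial respiratory chain and ATP synthase were followed in 15 hippocampal interneurons, each sequenced as a single cell. A row of the expression table belonged to the set when its symbol began with Nduf (letter a, b, c, s or v and a digit), Cox4 to Cox8, Uqcr or Atp5, or was Sdha, Sdhb, Sdhc, Sdhd or Cycs. The patterns matched 88 of 43629 genes. Cox6a2, 3 pseudogene rows and 4 genes listed at 0 in all 15 cells (Cox4i2, Cox7b2, Cox8c and Ndufa4l2) were left out, so that 80 genes remained. These were grouped by the start of the symbol alone, except that Ndufa4 was counted with complex IV. By this rule complex I had 35 genes, complex II 4, complex III 8, complex IV 15 and complex V 17, and 1 gene was cytochrome c.

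The cells came from the CA1 area of organotypic hippocampal slice cultures, which were prepared from C57BL6 mice of either sex at postnatal day 6 to 7. The 5 Pv+ cells came from Pv/RFP mice, the 5 VGT3+ cells from VGT3/RFP mice and the 5 Sst+ cells from Sst/RFP mice, in which a Pv-Cre, VGT3-Cre or Sst-Cre driver switched on a TdTomato reporter. No treatment was named for any cell, and the cytosol of each was drawn into a patch pipette in whole-cell mode. No animal or culture was named for any cell, so type cannot be told apart from mouse line, animal or culture, and each type counted as 1 sample. No test was therefore made between types, and every SD below is the spread between 5 cells. The code in brackets in the sample title was G556 for VGT3+ cells 1, 2 and 3. It was G709 for VGT3+ cells 4 and 5 and for all Pv+ and Sst+ cells. These codes are called batches below, although the labels do not say what they stand for. The marker that each driver stands for was present. Pvalb was at 3136 to 7383 TPM in Pv+ cells, Slc17a8 (VGT3) at 106 to 354 TPM in VGT3+ cells and Sst at 1804 to 4539 TPM in Sst+ cells.

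The respiratory chain passes electrons from NADH through complex I, or from succinate through complex II, to complex III, cytochrome c and complex IV, where oxygen is reduced. Complexes I, III and IV pump protons across the inner mitochondrial membrane, and complex V, the ATP synthase, uses the proton gradient to make ATP. Most subunits are encoded in the nucleus and imported, while a small number, including the catalytic centres of complex IV, are encoded in mitochondrial DNA. Complex II is encoded wholly in the nucleus and is also an enzyme of the citric acid cycle. Parvalbumin interneurons are known for fast firing and for a high density of mitochondria.

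Nuclear genes of the chain are known targets of nuclear respiratory factor 1 (NRF1) and of ETS family factors, which include GA-binding protein (NRF2). RefSeq promoter windows of GRCm38.p6, with 250 bases before and 50 after the transcription start, were matched by symbol for 66 of the 80 genes. The NRF1 core GCATGCG, on either strand, was in the window of 18.2% of these genes, against 4.01% of all 27025 genes with a window. The ETS motif CCGGAAG was in 24.2% against 9.93%, the YY1 motif AAGATGGC in 13.6% against 3.19% and the SP1 motif GGGCGG in 39.4% against 38.2%, each on either strand. The NRF1 core reads nearly the same on both strands, so that CGCATGCG holds it on each. The 200 bases before the start are printed for 4 genes that the results below turn on, with motif letters in capitals. Cycs and Atp5k were high in Pv+ cells and hold the NRF1 core. Sdhd was low in Pv+ cells and holds the ETS motif. Cox7a1 was nearly absent from VGT3+ cells, and its printed bases hold none of the 4 motifs.
Cycs (chr6:50566570-50566769, minus strand): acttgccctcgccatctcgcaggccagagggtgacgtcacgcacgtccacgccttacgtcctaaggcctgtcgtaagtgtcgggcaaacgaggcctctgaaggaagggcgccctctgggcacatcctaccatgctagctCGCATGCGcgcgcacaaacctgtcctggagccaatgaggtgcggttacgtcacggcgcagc
Atp5k (chr5:108434400-108434599, minus strand): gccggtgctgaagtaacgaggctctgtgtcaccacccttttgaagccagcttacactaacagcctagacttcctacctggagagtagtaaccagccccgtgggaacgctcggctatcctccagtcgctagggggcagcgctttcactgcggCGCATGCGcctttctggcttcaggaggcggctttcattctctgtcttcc
Sdhd (chr9:50603850-50604049, minus strand): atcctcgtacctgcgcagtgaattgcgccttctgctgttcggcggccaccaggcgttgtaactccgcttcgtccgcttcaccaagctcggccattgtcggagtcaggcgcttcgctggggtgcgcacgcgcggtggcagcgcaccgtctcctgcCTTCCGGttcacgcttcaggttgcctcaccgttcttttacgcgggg
Cox7a1 (chr7:30183971-30184170, plus strand): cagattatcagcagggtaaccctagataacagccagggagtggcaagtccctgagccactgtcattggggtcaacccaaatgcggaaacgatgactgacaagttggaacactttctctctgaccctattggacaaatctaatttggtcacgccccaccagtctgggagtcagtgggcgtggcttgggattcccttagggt
Among genes at least 2-fold higher in Pv+ than in VGT3+ cells, the NRF1 core was in the window of 16.2% of 37 genes, against 20.7% of the 29 other genes of the set. The ETS motif was in 21.6% against 27.6%, and the YY1 motif in 21.6% against 3.45%. These matches describe letters in a window and were not tested as sites.

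Together the 80 genes took a larger share of the transcriptome in Pv+ cells than in either other type. Levels are given in TPM, a share of transcripts corrected for gene length, for which every cell has the same total. The set summed to 189598, 181253, 143607, 211008 and 158680.0 TPM in Pv+ cells 1 to 5. In VGT3+ cells the sums were 109148, 100873, 64215, 66659 and 73113 TPM, and in Sst+ cells 79520.1, 116268, 104643, 89382 and 91762 TPM. Every Pv+ cell was above every VGT3+ and every Sst+ cell, while VGT3+ and Sst+ cells overlapped. On average the set held 17.7% ± 2.64 of all TPM in Pv+ cells, 8.28% ± 2.07 in VGT3+ cells and 9.63% ± 1.43 in Sst+ cells (SD, n = 5 cells each). The Pv+ mean was 2.14 times the VGT3+ mean and 1.84 times the Sst+ mean, and the VGT3+ mean was 0.86 times the Sst+ mean. In batch G709 alone, with VGT3+ cells 4 and 5, the Pv+ mean was 2.53 times the VGT3+ mean.

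**Figure D1:**
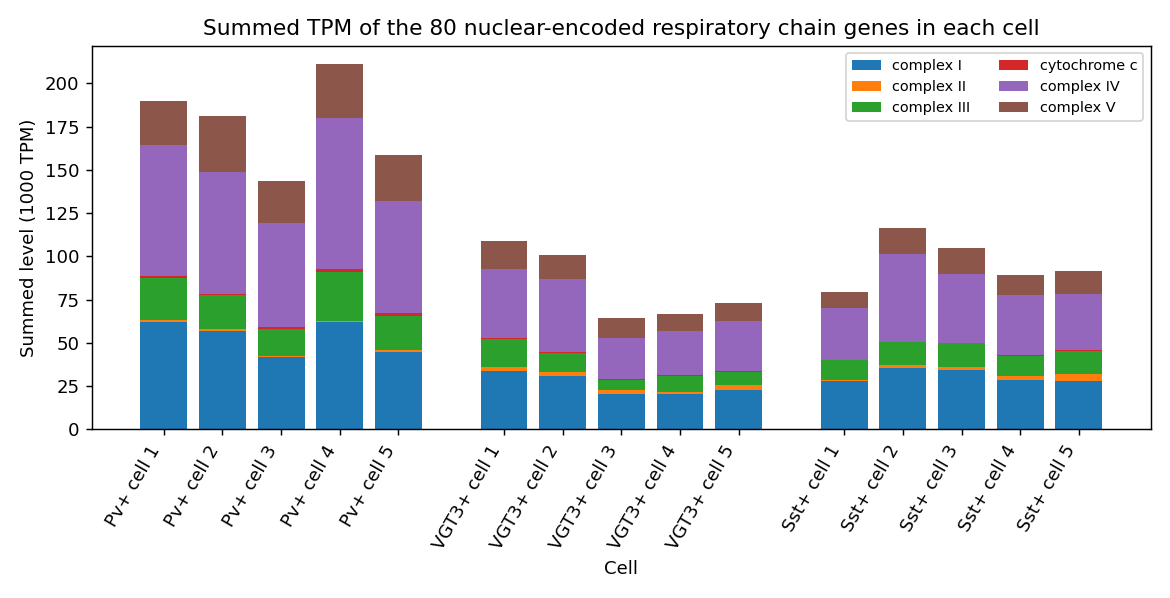
Summed TPM of the 80 genes in each of the 15 cells (y axis, in units of 1000 TPM), stacked by complex, with Pv+ cells at the left, VGT3+ cells in the middle and Sst+ cells at the right. The 5 Pv+ bars stand at 143607 to 211008 TPM, above all other bars, and complexes I and IV make up most of each bar.

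Nearly all of the set was seen in every cell. In Pv+ cells 78 to 79 of the 80 genes were above 0, in VGT3+ cells 70 to 78 and in Sst+ cells 71 to 78, and 64 genes were above 0 in all 15 cells. The most abundant was Ndufa4, long placed in complex I and now counted with complex IV, which lies on chr6:11900292-11907497 (GRCm38, GENCODE annotation). Ndufa4 was at 38484, 34460.0, 30834, 43224 and 29790.2 TPM in Pv+ cells, against 12208, 17733, 8928, 9632 and 12578 TPM in VGT3+ cells and 12922, 23867, 18158, 16947 and 12065 TPM in Sst+ cells. It ranked between 1 and 5 among all genes of each Pv+ cell. The Pv+ excess did not rest on this gene, since the sums without it were 2.00 times the VGT3+ mean and 1.78 times the Sst+ mean.

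The excess was spread over most genes of the set. For each gene, the difference between types is that of the mean log2(TPM + 1), and 1 unit is a 2-fold change. Between Pv+ and VGT3+ cells the median difference of the 80 genes was 1.07, and 68 genes were higher in Pv+ cells. At least a 2-fold higher level in Pv+ cells was seen for 43 of 80 genes, against 24.1% of the 12825 genes that averaged 1 TPM or more, and at least a 2-fold lower level for 6 of 80, against 22.7%. Between Pv+ and Sst+ cells the median was 0.85, and 67 genes were higher in Pv+ cells. Here 36 genes were at least 2-fold higher, against 22.9% of all genes, and 3 were at least 2-fold lower, against 23.2%. The median over all genes was 0 in both comparisons. These comparisons share the Pv+ cells and are not independent of each other.

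**Figure D2:**
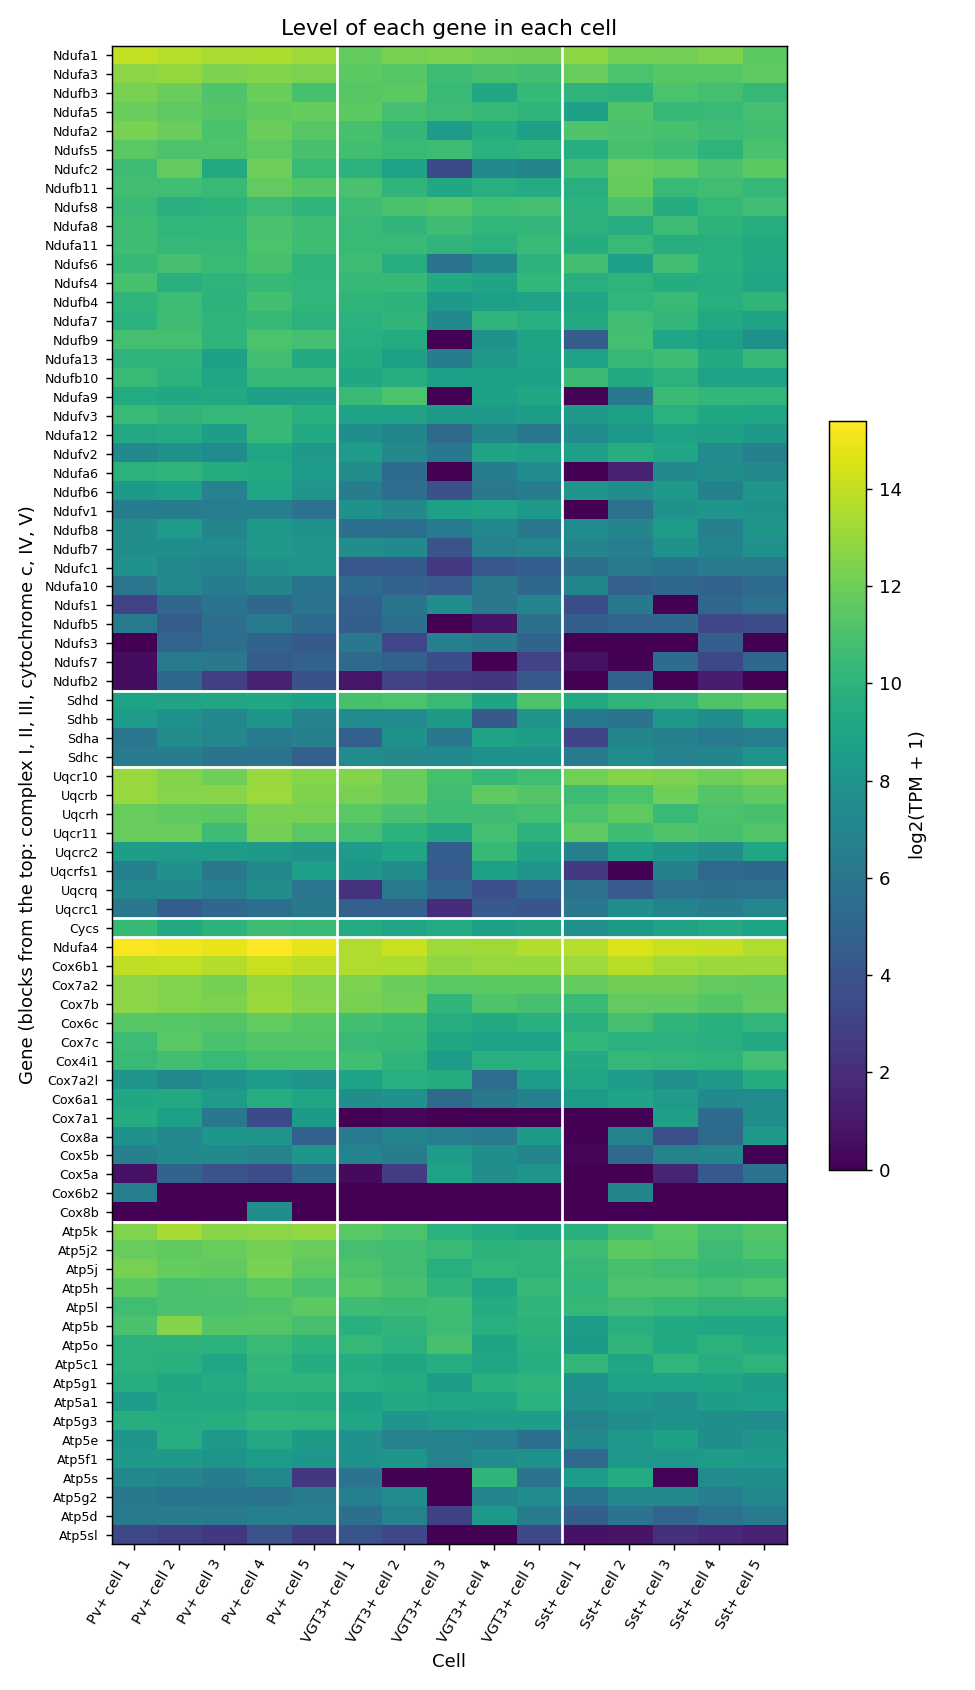
Level of 79 of the 80 genes (rows, grouped by complex and ordered by mean level) in each cell (columns), in colour as log2(TPM + 1). The 5 Pv+ columns are the brightest for most rows of complexes I, III, IV and V, while the 4 rows of complex II do not show this pattern. VGT3+ cell 3 and Sst+ cell 1 have the most dark fields, with 70 and 71 of the 80 genes above 0.

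In 15 genes every Pv+ cell was above all 10 other cells, against 0.733% of all genes. They were Ndufa1, Ndufa3, Ndufa6 and Ndufc1 of complex I, Uqcrb of complex III, Ndufa4, Cox6c, Cox7b and Cox7c of complex IV, and Atp5b, Atp5g3, Atp5j, Atp5j2, Atp5k and Atp5l of complex V. No gene had every Pv+ cell below all others, against 0.881% of all genes. VGT3+ cells stood above all others in 0 genes, against 0.281%, and below all others in 2 (Ndufb6 and Ndufc1), against 0.234%. Sst+ cells stood above all others in 0 genes, against 0.288%, and below all others in 1 (Atp5g3), against 0.0546%.

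The size of the difference between Pv+ and VGT3+ cells depended on which VGT3+ cells were counted. VGT3+ cells 3 and 4 had 5463 and 6005 genes above 0, against 9092 to 9577 in the other VGT3+ cells, 8439 to 11156 in Pv+ cells and 7226 to 10191 in Sst+ cells. Without both, an alternative chosen after seeing the data, the median of Pv+ minus VGT3+ was 0.66, and the median of all genes was -0.20. Of the 80 genes, 29 were then at least 2-fold higher, against 19.4% of all genes, and 6 at least 2-fold lower, against 31.8%. The summed ratio was 1.87. The same 15 genes again had every Pv+ cell above all others, against 0.865% of all genes. Of the 80 genes 1, Sdhd, had every Pv+ cell below all others, against 1.66% of all genes. VGT3+ cell 5 had 9577 genes above 0 but a summed level of 73113 TPM. VGT3+ cells 3 and 4 had 64215 and 66659 TPM. Cells 1 and 2, both of batch G556, had 109148 and 100873 TPM. Leaving out cells 3 and 4 left these and cell 5, of batch G709, beside Pv+ cells that were all of G709. The parts of detected genes and of batch in the change were not tested.

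Complex I, the NADH dehydrogenase, was higher in Pv+ cells through its accessory subunits. These surround the catalytic core and serve its assembly and stability. All 28 were higher in Pv+ than in VGT3+ cells, with a median difference of 1.39, and 21 were at least 2-fold higher, against 24.1% of all genes. Of the same 28, 26 were higher in Pv+ than in Sst+ cells, with a median of 0.84. At least 2-fold higher were 13, against 22.9% of all genes. The sums were 60222, 55612, 40167, 59525 and 43248 TPM in Pv+ cells, against 31053, 28131, 17322, 17539 and 19582 TPM in VGT3+ cells and 26098, 32546, 32806, 26830.3 and 26027 TPM in Sst+ cells. Every Pv+ cell was above all others. Without VGT3+ cells 3 and 4, 26 of the 28 were higher in Pv+ than in VGT3+ cells, with a median of 0.82. At least 2-fold higher were then 12, against 19.4% of all genes.

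Ndufa1, a small membrane subunit needed for assembly of the complex, had the highest mean of complex I. Its levels were 16094, 13014, 10953, 11430.5 and 9623 TPM in Pv+ cells, against 3494, 4880.1, 5577, 4515 and 4267 TPM in VGT3+ cells and 6992, 4723, 4536, 5468 and 2971 TPM in Sst+ cells. Ndufa6, an LYR-motif subunit of the matrix arm, differed most among subunits found in every Pv+ cell, with 938, 1098, 744, 672 and 353 TPM in Pv+ cells, against 192, 40.5, 0, 88.8 and 176 TPM in VGT3+ cells and 0, 1.79, 152, 198 and 149 TPM in Sst+ cells. The lowest Pv+ cell still exceeded the highest of the other 10 cells, in which VGT3+ cell 3 and Sst+ cell 1 were listed at 0. Ndufc1, a short membrane subunit, was at 236, 142, 119, 217 and 254 TPM in Pv+ cells, against 17.0, 18.6, 5.11, 17.0 and 23.3 TPM in VGT3+ cells and 50.1, 78.8, 61.2, 76.5 and 82.5 TPM in Sst+ cells, so that the 3 types did not overlap. Its neighbour in name, Ndufc2, also a membrane subunit, followed another order, with 657 to 4032 TPM in Pv+ cells, against 10.1 to 933 TPM in VGT3+ cells and 1551 to 3552 TPM in Sst+ cells. Pv+ and Sst+ cells overlapped there, and 4 VGT3+ cells were below all of them.

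Ndufb9, Ndufa12 and Ndufb6 separated Pv+ from VGT3+ cells but not from Sst+ cells. Ndufb9, another LYR-motif subunit, was at 1888, 1799, 1068, 2102 and 1756 TPM in Pv+ cells, against 848, 696, 0, 228 and 504 TPM in VGT3+ cells and 22.3, 1766, 539.8, 421 and 207 TPM in Sst+ cells. Ndufa12, a subunit of the matrix arm, was at 377 to 1259 TPM in Pv+ cells, against 38.9 to 204 TPM in VGT3+ cells and 185 to 473 TPM in Sst+ cells. Ndufb6 was at 111 to 544 TPM in Pv+ cells, against 12.9 to 92.4 TPM in VGT3+ cells and 108 to 314 TPM in Sst+ cells, with Pv+ and Sst+ cells overlapping. Ndufa13, also known as GRIM-19, was at 445 to 1733 TPM in Pv+ cells, against 87.4 to 756 TPM in VGT3+ cells and 496 to 1561 TPM in Sst+ cells, and all 3 types overlapped. Against VGT3+ cells the remaining accessory genes differed by 0.14 (Ndufb2) to 2.30 (Ndufb5).

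The catalytic core of complex I went the other way against VGT3+ cells. The 7 genes encode the subunits that carry the flavin and the iron-sulfur clusters and bind the quinone. Of these, 5 were lower in Pv+ than in VGT3+ cells, with a median difference of -0.73. At least 2-fold lower were 3 of the 7, against 22.7% of all genes. The summed core was at 1791, 1446, 1505, 2363 and 1713 TPM in Pv+ cells, against 2594, 2573, 3259.5, 2882 and 3009.9 TPM in VGT3+ cells and 1663, 3147, 1754, 1759 and 2180.0 TPM in Sst+ cells. Every Pv+ cell was below every VGT3+ cell, with a ratio of means of 0.62. Against Sst+ cells the median was 0.49, with 4 genes higher and 3 lower, and the sums overlapped. With size factors from genes present in all cells in place of TPM, the VGT3+ contrast kept its sign at -0.30 but 3 of the 25 pairs of cells then had the higher sum in the Pv+ cell. Without Pv+ cell 1, in which Ndufs3 was listed at 0, the count of core genes at least 2-fold lower was 1, against 22.4% of all genes.

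Ndufv1, which binds NADH and the flavin, had the largest difference of the core against VGT3+ cells. It was at 88.1, 88.1, 95.1, 98.3 and 58.0 TPM in Pv+ cells, against 243, 148, 421, 459 and 317 TPM in VGT3+ cells and 0, 55.0, 230.4, 258 and 245 TPM in Sst+ cells. All Pv+ cells were below all VGT3+ cells, and Sst+ cells spanned both ranges. Ndufs8, which carries iron-sulfur clusters near the quinone site, was the most abundant core gene, at 1333, 864, 989.5, 1479 and 1059 TPM in Pv+ cells, against 1562, 1981, 2342, 1701 and 1797 TPM in VGT3+ cells and 913, 2054, 732, 1225 and 1625 TPM in Sst+ cells. Again no Pv+ cell reached a VGT3+ cell, while Sst+ cells overlapped both types. Ndufs1, the largest subunit, was at 7.81 to 60.8 TPM in Pv+ cells, against 25.6 to 175 TPM in VGT3+ cells and 0.0213 to 74.5 TPM in Sst+ cells. It overlapped between all types. Ndufs3, a matrix arm subunit, was at 0 to 44.9 TPM in Pv+ cells, against 8.50 to 103 TPM in VGT3+ cells and 0 to 23.6 TPM in Sst+ cells, where only cell 4 was above 1 TPM. Ndufv2, which carries an iron-sulfur cluster, was at 157 to 554 TPM in Pv+ cells, against 73.4 to 507 TPM in VGT3+ cells and 105 to 776 TPM in Sst+ cells. Ndufs7, the only core gene at least 2-fold higher in Pv+ than VGT3+ cells, was at 0.45 to 77.5 TPM in Pv+ cells, against 0 to 39.7 TPM in VGT3+ cells and 0.0649 to 41.0 TPM in Sst+ cells. Its difference to VGT3+ cells was 1.07, and without Pv+ cell 2 no core gene was at least 2-fold higher. Both overlapped between the types.

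**Figure D3:**
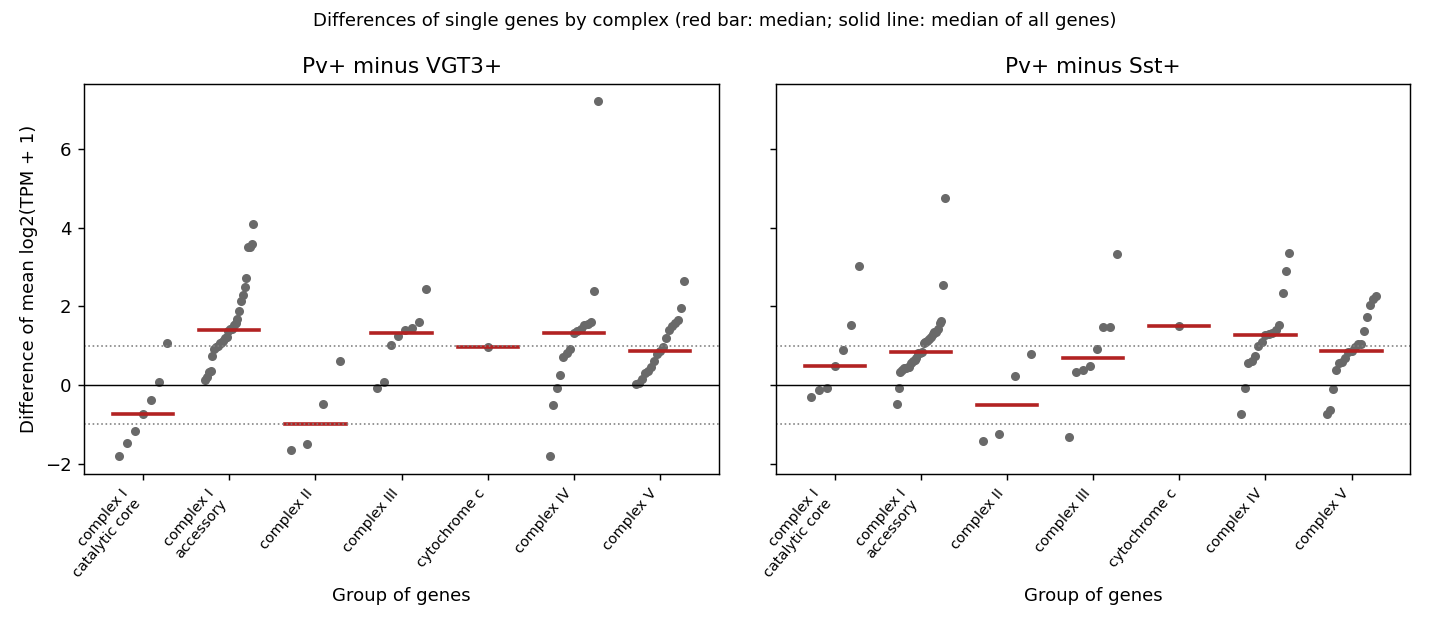
Difference of mean log2(TPM + 1) for each gene (points) by complex, for Pv+ minus VGT3+ cells at the left and Pv+ minus Sst+ cells at the right; red bars are group medians, the solid line is the median of all genes (0) and dotted lines mark a 2-fold change. All 28 accessory genes of complex I lie above 0 against VGT3+ cells, while the medians of the catalytic core (-0.73) and of complex II (-0.98) lie below it.

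Complex II, succinate dehydrogenase, was the complex with less RNA in Pv+ cells. The 4 genes summed to 979, 1008, 874, 1034 and 696 TPM in Pv+ cells, against 2278, 2606, 1938, 1221 and 3101 TPM in VGT3+ cells and 816, 1461, 1669.8, 2563 and 3798 TPM in Sst+ cells. Every Pv+ cell was below every VGT3+ cell, and the Pv+ cell had the higher sum in 4 of the 25 pairs with an Sst+ cell. The ratio of means was 0.41 to VGT3+ and 0.45 to Sst+ cells, and with the size factors it was 0.57 and 0.60. The median difference was -0.98 against VGT3+ cells and -0.50 against Sst+ cells, of which the Sst+ value was -0.19 without Sst+ cell 5 and -0.76 without Sst+ cell 1.

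Most of the difference lay in the membrane anchors Sdhd and Sdhc, which hold the complex in the inner membrane and bind quinone. Sdhd lies on chr9:50596357-50603812, minus strand. It was at 481, 509, 530.0, 611 and 449.6 TPM in Pv+ cells, against 1913, 2059, 1368, 511 and 2238 TPM in VGT3+ cells and 658, 1091, 1126, 2150.0 and 2900.3 TPM in Sst+ cells. The Pv+ cells lay in a narrow range below every Sst+ cell and below 4 of 5 VGT3+ cells, with VGT3+ cell 4 inside the Pv+ range. Sdhc was at 82.4, 87.9, 60.2, 59.4 and 25.4 TPM in Pv+ cells, against 170.0, 152, 167, 216 and 221 TPM in VGT3+ cells and 76.4, 178, 112, 134 and 249.6 TPM in Sst+ cells, with every Pv+ cell below every VGT3+ cell. Sdha, the flavoprotein that oxidises succinate, was at 65.2 to 185 TPM in Pv+ cells, against 25.2 to 475 TPM in VGT3+ cells and 8.44 to 132 TPM in Sst+ cells. Sdhb, the iron-sulfur subunit, was at 118 to 350.4 TPM in Pv+ cells, against 19.0 to 331 TPM in VGT3+ cells and 61.0 to 555 TPM in Sst+ cells. These catalytic subunits overlapped between all 3 types.

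**Figure D4:**
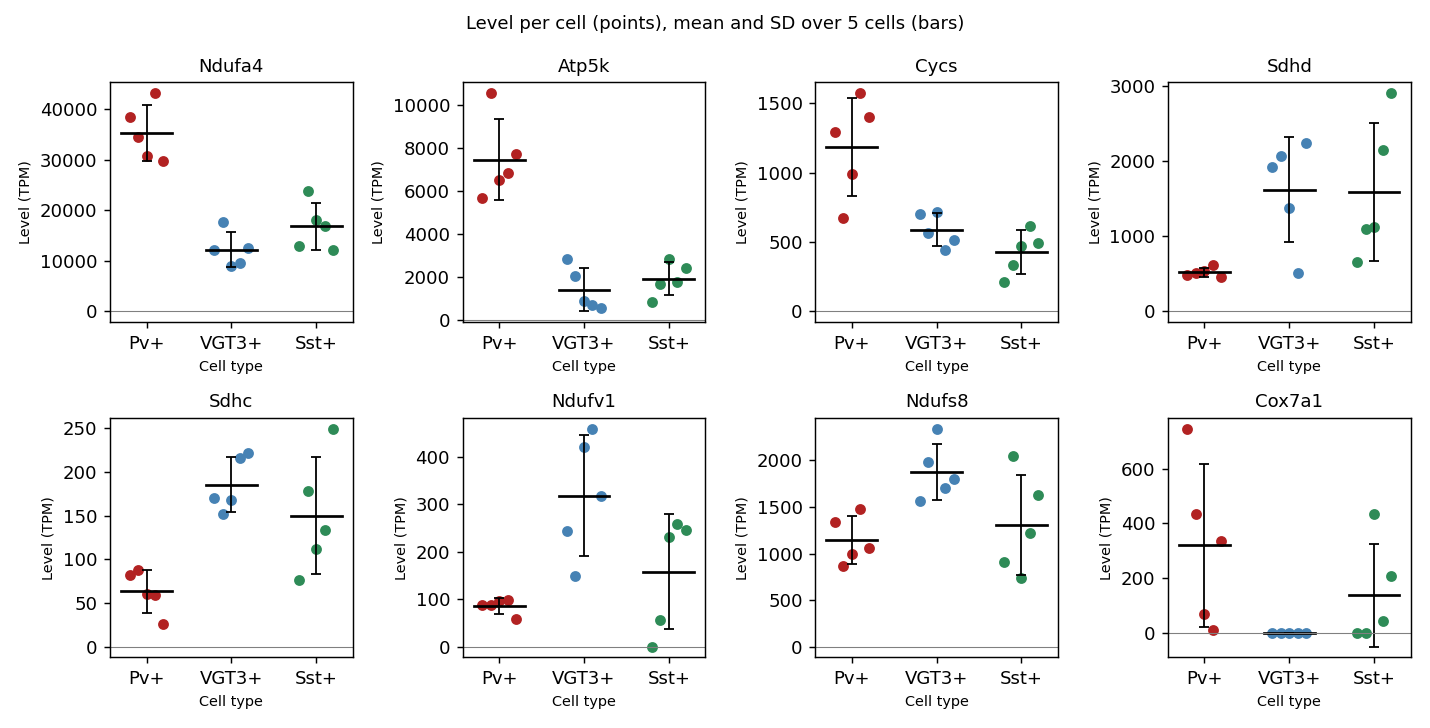
Level in each cell (points, TPM) of 8 genes, with the mean and SD over 5 cells as black bars, for Pv+, VGT3+ and Sst+ cells from left to right. Ndufa4 and Atp5k are higher in every Pv+ cell than in any other cell, Sdhc, Ndufv1 and Ndufs8 are lower in every Pv+ cell than in any VGT3+ cell, and Cox7a1 is at or near 0 in the VGT3+ cells.

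Complex III, the cytochrome bc1 complex, was higher in Pv+ cells in most of its genes. Against VGT3+ cells 7 of 8 genes were higher, with a median of 1.33, and 6 were at least 2-fold higher, against 24.1% of all genes. Against Sst+ cells 7 of 8 were higher, with a median of 0.70, and 3 were at least 2-fold higher, against 22.9% of all genes. Uqcrb, which binds quinone, was at 8438, 6111, 6517, 9176 and 5570.5 TPM in Pv+ cells, against 4862, 3752, 1637, 3024 and 2461 TPM in VGT3+ cells and 1516, 2108, 4162, 2525 and 3138 TPM in Sst+ cells. No other cell reached the lowest Pv+ cell. Uqcr10, a membrane subunit and the most abundant of the complex, was at 4081 to 8329.5 TPM in Pv+ cells, against 1215 to 6003 TPM in VGT3+ cells and 4104 to 5849 TPM in Sst+ cells, with overlap. Uqcrc1, a core protein of the matrix side, was at 71.4, 23.6, 34.4, 47.3 and 74.4 TPM in Pv+ cells, against 26.7, 25.9, 2.57, 18.6 and 15.7 TPM in VGT3+ cells and 70.3, 196, 124, 91.7 and 139 TPM in Sst+ cells. It was the only gene of complex III that was at least 2-fold lower in Pv+ than in Sst+ cells. Uqcrfs1, the Rieske iron-sulfur protein, was at 66.7 to 417 TPM in Pv+ cells, against 20.8 to 439 TPM in VGT3+ cells and 0.0818 to 109 TPM in Sst+ cells. Uqcrc2, the other core protein, was at 243 to 374 TPM in Pv+ cells, against 23.7 to 1249 TPM in VGT3+ cells and 102 to 533 TPM in Sst+ cells. The small subunits Uqcrh, Uqcr11 and Uqcrq differed by 1.01, 1.45 and 2.45 against VGT3+ cells. Uqcrfs1 had the largest difference of the complex against Sst+ cells, 3.33, and -0.07 against VGT3+ cells.

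Cycs encodes cytochrome c, the small carrier between complexes III and IV, and lies on chr6:50562563-50566538, minus strand. It was at 1289, 669, 992, 1572 and 1398 TPM in Pv+ cells, against 701, 564, 714, 441 and 511 TPM in VGT3+ cells and 211, 336, 471, 617 and 494 TPM in Sst+ cells. Every Pv+ cell was above every Sst+ cell, while Pv+ cell 2 was below VGT3+ cells 1 and 3. The difference was 0.98 against VGT3+ cells and 1.50 against Sst+ cells.

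Complex IV, cytochrome c oxidase, contributed the largest sum of any complex in each type. This order rested on counting Ndufa4 with complex IV, and without that gene complex I had the largest mean sum in each type. Its 15 genes summed to 71576 ± 10649 TPM in Pv+ cells, against 32055 ± 8441 TPM in VGT3+ cells and 37547 ± 8003 TPM in Sst+ cells (SD, n = 5 cells each). Against VGT3+ cells 12 of 15 genes were higher in Pv+ cells, and 8 were at least 2-fold higher, against 24.1% of all genes. The 8 include Cox6b2 and Cox8b, each above 0 in only 1 Pv+ cell. The median was 1.32, the value of Cox6b2 itself, or 0.85 without Pv+ cell 4. Against Sst+ cells 13 were higher, with a median of 1.28, and 10 were at least 2-fold higher, against 22.9% of all genes. Cox7c, a small membrane subunit, was at 1522, 2872, 2002, 2452 and 2502 TPM in Pv+ cells, against 1303, 1275, 591, 465 and 475 TPM in VGT3+ cells and 1183, 916, 900.3, 790.2 and 689.6 TPM in Sst+ cells. The lowest Pv+ cell was above all 10 other cells. Cox6b1, which sits on the intermembrane side and came next to Ndufa4 in mean level, was at 12411 to 18416 TPM in Pv+ cells, against 7432 to 11904 TPM in VGT3+ cells and 8734 to 13888 TPM in Sst+ cells. It differed by 0.72 against VGT3+ and 0.62 against Sst+ cells. Against VGT3+ cells Cox6a1, Cox6c and Cox7b differed by 2.40, 1.43 and 1.37.

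Cox5a and Cox5b, subunits on the matrix side of the oxidase, were not higher in Pv+ than in VGT3+ cells but were at least 2-fold higher in Pv+ than in Sst+ cells, with differences of 1.40 for Cox5a and 3.35 for Cox5b. Cox5a was at 0.672, 29.0, 14.8, 11.5 and 41.4 TPM in Pv+ cells, against 0.302, 5.77, 472, 193 and 265 TPM in VGT3+ cells and 0, 0, 1.99, 17.8 and 57.2 TPM in Sst+ cells. It was the only gene of the complex at least 2-fold lower in Pv+ than VGT3+ cells (-1.80), which rested on VGT3+ cells 3, 4 and 5, and without cell 3 it was no longer 2-fold. Cox5b was at 103, 168, 157, 116 and 267 TPM in Pv+ cells, against 123, 91.1, 357, 204 and 131 TPM in VGT3+ cells and 0.222, 37.3, 115, 135 and 0.0785 TPM in Sst+ cells, with the lowest values in Sst+ cells 1 and 5. Cox7a2l, a factor that joins complexes III and IV into supercomplexes, was at 139 to 359 TPM in Pv+ cells, against 44.5 to 807 TPM in VGT3+ cells and 213 to 746 TPM in Sst+ cells, with overlap between all types.

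Several subunits of complex IV exist as tissue isoforms, of which the ubiquitous forms had the higher level wherever either was seen. Cox4i1 was at 1316 to 1949 TPM in Pv+ cells, against 368 to 1727 TPM in VGT3+ cells and 672 to 1767 TPM in Sst+ cells, while its lung-type partner Cox4i2 was listed at 0 throughout. Cox7a2 was at 4598 to 7934 TPM in Pv+ cells, against 2864 to 5325 TPM in VGT3+ cells and 3198 to 4272 TPM in Sst+ cells. The heart and muscle form Cox7a1 (chr7:30184144-30186078, plus strand) was at 747, 436, 69.4, 10.1 and 336 TPM in Pv+ cells, against 0, 0.223, 0, 0 and 0 TPM in VGT3+ cells and 0, 0, 435, 42.2 and 207 TPM in Sst+ cells. It was present in all 5 Pv+ and in 3 Sst+ cells, and VGT3+ cells were listed at 0 apart from a trace in cell 2. Cox8a was at 242, 138, 267, 264 and 28.0 TPM in Pv+ cells, against 83.2, 120.1, 94.5, 85.4 and 333 TPM in VGT3+ cells and 0, 124, 12.3, 38.7 and 309 TPM in Sst+ cells. Its heart and muscle counterpart Cox8b was above 0 only in Pv+ cell 4, at 200.9 TPM, and the testis form Cox6b2 only in Pv+ cell 1, at 96.4 TPM, and Sst+ cell 2, at 128.0 TPM. The 2-fold calls of Cox8b and Cox6b2 thus rested on 1 Pv+ cell each. Ndufa4l2, the relative of Ndufa4 induced by low oxygen, was listed at 0 in all 15 cells.

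Complex V, the ATP synthase, was higher in Pv+ cells in most of its genes. All 17 genes were higher than in VGT3+ cells, and 7 were at least 2-fold higher, against 24.1% of all genes. The median was 0.87, which was 0.54 without VGT3+ cell 3. Against Sst+ cells 14 were higher, with a median of 0.86, and 7 were at least 2-fold higher, against 22.9% of all genes. Without VGT3+ cells 3 and 4, 13 of 17 were higher than in VGT3+ cells and the median was 0.37, while the ratio of summed TPM was 2.07 beside 2.27 with all cells. Atp5k, subunit e of the membrane sector, which helps ATP synthase dimers form, lies on chr5:108433244-108434448, minus strand, and was the most abundant. It was at 5673, 10545, 6513, 6849 and 7709 TPM in Pv+ cells, against 2855, 2063, 913, 725 and 569 TPM in VGT3+ cells and 875, 1679, 2873, 1792 and 2424 TPM in Sst+ cells. Every Pv+ cell was above the highest of the others. The stalk subunit Atp5j was at 4888, 3509, 3203, 4976 and 3075 TPM in Pv+ cells, against 2214, 1648, 856, 1124 and 1056 TPM in VGT3+ cells and 1228, 1957, 1669.9, 1300.1 and 1428 TPM in Sst+ cells, again without overlap. The complex V genes whose levels are not given here or below differed by 0.06 (Atp5o) to 1.97 (Atp5e) against VGT3+ cells.

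The catalytic head was uneven. Atp5b, the catalytic beta subunit, was at 2036, 5998, 2485, 2508 and 1831 TPM in Pv+ cells, against 891, 1079, 1486, 789 and 974 TPM in VGT3+ cells and 392, 851, 683, 579.9 and 535 TPM in Sst+ cells, and the Pv+ cells stood apart, cell 2 most of all. Its partner Atp5a1, the alpha subunit, was at 349 to 781 TPM in Pv+ cells, against 446 to 901 TPM in VGT3+ cells and 209 to 416 TPM in Sst+ cells. There Pv+ and VGT3+ cells overlapped, and every VGT3+ cell was above every Sst+ cell. Atp5c1, the gamma subunit of the shaft, was at 535 to 1188 TPM in Pv+ cells, against 557 to 771 TPM in VGT3+ cells and 539 to 1159.8 TPM in Sst+ cells, with overlap between all types.

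The membrane ring of the synthase is built of subunit c, whose mature form is the same from Atp5g1, Atp5g2 and Atp5g3. Atp5g3 was at 775, 731, 768, 1097 and 1056 TPM in Pv+ cells, against 553, 269, 353, 402 and 374 TPM in VGT3+ cells and 115, 203, 227, 200.4 and 184 TPM in Sst+ cells, and the 3 types did not overlap. Atp5g1 was at 577 to 1073 TPM in Pv+ cells, against 386 to 1031 TPM in VGT3+ cells and 233 to 502 TPM in Sst+ cells, with Sst+ cells below all Pv+ cells. Atp5g2 was at 59.7 to 78.2 TPM in Pv+ cells, against 0 to 182 TPM in VGT3+ cells, where cell 3 was listed at 0, and 62.6 to 154 TPM in Sst+ cells. The order of the types thus differed between the 3 genes of the ring. Atp5s, a factor associated with the synthase, was uneven within types, at 143, 119, 85.7, 144 and 4.57 TPM in Pv+ cells, against 58.2, 0.0547, 0, 1093 and 58.9 TPM in VGT3+ cells and 362, 725, 0.116, 177 and 203 TPM in Sst+ cells.

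VGT3+ and Sst+ cells were much alike as a set. The median difference of VGT3+ minus Sst+ was -0.13, with 32 genes higher and 47 lower in VGT3+ cells. At least 2-fold higher in VGT3+ cells were 11 genes, against 22.9% of all genes, and at least 2-fold lower 16, against 24.7%. The count of genes at least 2-fold higher was 17 without VGT3+ cell 3, against 27.5% of all genes, and 6 without Sst+ cell 1, against 22.2%. Without VGT3+ cells 3 and 4 the median was 0.18, beside 0.16 for all genes, so the sign of this small difference was not stable. In that setting 17 genes were at least 2-fold higher, against 30.5% of all genes, and 10 at least 2-fold lower, against 19.4%. Among single genes, Ndufs3 (4.50), Cox5b (3.42) and Uqcrfs1 (3.41) were the most positive. Each was listed at 0 or below 1 TPM in at least 1 Sst+ cell. Cox7a1 (-4.32), Ndufc2 (-3.99) and Uqcrc1 (-2.94) were the most negative.

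Genes of the set also tended to move together between cells of 1 type. With log2(TPM + 1) centred within each type, the median correlation between pairs of the 64 genes seen in all cells was 0.23 over 15 cells, and 71.7% of pairs were positive. For all 1709 genes seen in all cells the median was 0.02, and for 80 cytosolic ribosomal protein genes it was 0.25. The points share each cell's library and depth. Centring by type also left the batch difference among VGT3+ cells in place. Atp5j (0.94) and Cox6b1 (0.91) followed the summed level of the other genes of the set most closely. The correlation with that sum was above 0.5 for 32 of the 64 genes and below 0 for 7, among them Ndufs1 (-0.33) and Ndufa1 (-0.28). Within the Pv+ type, cell 4 held the highest level of 42 of the 80 genes and cell 3 the lowest of 27. In VGT3+ cells, cell 1 was highest in 35 and cell 3 lowest in 36, and in Sst+ cells, cell 2 was highest in 28 and cell 1 lowest in 37.

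The mitochondrially encoded subunits were higher in Pv+ than in Sst+ cells, as the nuclear set was, but their sums overlapped between Pv+ and VGT3+ cells. The 13 protein genes of the mitochondrial genome summed to 84582, 131286, 139042, 88083 and 179911 TPM in Pv+ cells, against 111577, 63854, 149946, 194096 and 141417 TPM in VGT3+ cells and 80359.9, 65252, 66371, 90098 and 77607 TPM in Sst+ cells. The Pv+ mean was 0.94 times the VGT3+ mean, with the Pv+ cell higher in 10 of 25 pairs, and 1.64 times the Sst+ mean, with 23 of 25. Of the 13 genes, 10 were higher in Pv+ than VGT3+ cells with a median of 0.57, which was 0.23 without VGT3+ cell 2 and 0.02 in batch G709 alone. All 13 were higher in Pv+ than Sst+ cells, with a median of 1.25. With the size factors the summed ratio to VGT3+ cells was 1.24, and without VGT3+ cell 4 it was 1.07, so its direction depended on the scaling and on that cell.

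**Figure D5:**
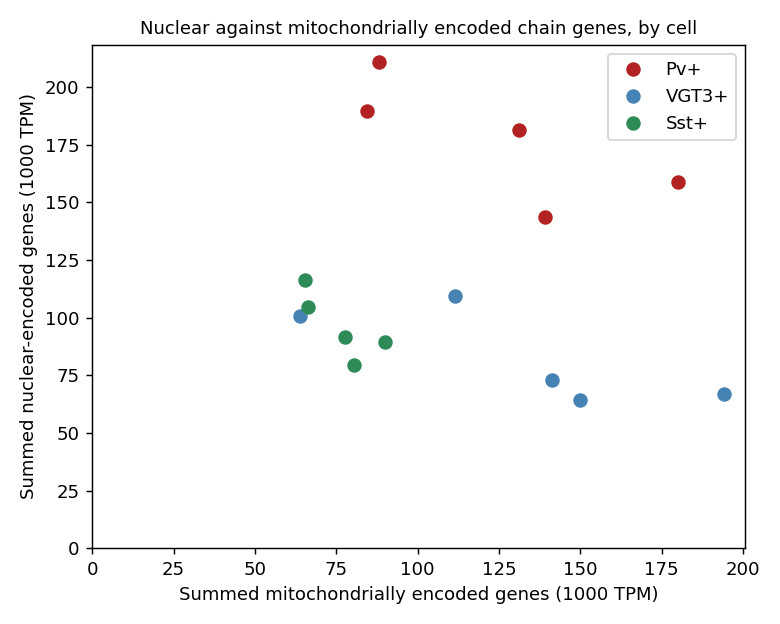
Summed TPM of the 80 nuclear-encoded genes (y axis, in units of 1000 TPM) against summed TPM of the 13 mitochondrially encoded protein genes (x axis, in units of 1000 TPM), 1 point per cell, coloured by type. Pv+ cells lie above the others on the y axis at 143607 to 211008 TPM, while on the x axis they overlap VGT3+ cells, at 84582 to 179911 TPM against 63854 to 194096 TPM.

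Other lists of energy metabolism did not show the same pattern, apart from factors closest to the chain. Among 40 assembly factors and other nuclear genes of the chain, 28 were higher in Pv+ than VGT3+ cells, with a median of 0.79, and 26 were higher in Pv+ than Sst+ cells, with a median of 0.76. The VGT3+ value was 0.17 without VGT3+ cells 3 and 4, and the Sst+ value 0.33 without Sst+ cell 1. Citric acid cycle enzymes had medians of -0.14 against VGT3+ and 0.41 against Sst+ cells, and both changed sign when a single cell was left out (0.07 without Pv+ cell 1 and -0.13 without Sst+ cell 1). Their summed TPM was 1135, 1536, 1576, 1290.4 and 1607 in Pv+ cells and 1849, 2761, 3837, 2492 and 2759 in VGT3+ cells, so that every Pv+ cell was below every VGT3+ cell, as in complex II. The ratio of means was 0.52, and 0.70 with the size factors. In Sst+ cells it was 1288, 1590.2, 2314, 1890.5 and 1408, with overlap. Glycolytic enzymes had medians of -0.53 against VGT3+ and -0.69 against Sst+ cells. Cytosolic ribosomal proteins had medians of 0.20 against VGT3+ and 0.13 against Sst+ cells, and the 14 regulators of mitochondrial biogenesis 0.05 against VGT3+ and 0.66 against Sst+ cells.

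Several other measures moved with the Pv+ excess. Among genes averaging 100 TPM or more, the median of Pv+ minus VGT3+ was 0.79 for 218 genes with under 1000 exonic bases, 0.37 for 314 genes with 1000 to 2000 and -0.42 for 610 longer ones, and for Pv+ minus Sst+ it was 0.47, 0.04 and -0.45. All 80 genes of the set, without that minimum, had by the same lengths medians of 1.42, 1.01 and 0.78 against VGT3+ cells and 0.81, 0.88 and 0.88 against Sst+ cells, over 19, 30 and 31 genes. Over all genes averaging 1 TPM or more, the medians by the same lengths were 0.06, 0.11 and 0 against VGT3+ cells. Against Sst+ cells they were 0, 0 and -0.02. Of the 7 core genes of complex I, 5 exceeded 2000 bases, as did 3 of the 4 genes of complex II and 8 of the 28 accessory genes of complex I. So did 10 of the 17 genes of complex V, and Cycs. In complex III it was 2 of 8 genes and in complex IV 2 of 15. Complex V and Cycs were higher in Pv+ than in VGT3+ cells, with a median of 0.87 and a difference of 0.98. The 1709 genes seen in every cell had medians of -0.38 against VGT3+ and -0.30 against Sst+ cells, and scaling by them gave the set medians of 1.46 against VGT3+ and 1.23 against Sst+ cells, beside medians of all genes of 0.16 against VGT3+ and 0.09 against Sst+ cells. The part of transcript length in these differences was not tested.

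RNA of other cell types was also present. Summed over 10 microglia genes, all seen in each type, Pv+ cells held 4061 to 17028 TPM, VGT3+ cells 162 to 24695 TPM and Sst+ cells 0.545 to 5583 TPM. The 8 astrocyte genes, with Gjb6 listed at 0 throughout, summed to 199 to 488 TPM in Pv+ cells, against 230 to 3553 TPM in VGT3+ cells and 198 to 2175 TPM in Sst+ cells. The 10 oligodendrocyte lineage genes summed to 33.8 to 431 TPM in Pv+ cells, against 5.72 to 619 TPM in VGT3+ cells, with Pdgfra at 0, and 59.1 to 1363 TPM in Sst+ cells, with Mog and Olig2 at 0. The 6 endothelial genes were at or near 0, with at most 5.11 TPM in any cell and Cldn5, Flt1, Kdr and Cdh5 at 0 in all. The share of these cells in the chain genes' levels was not tested. The cell with the most microglia RNA of its type had the lowest sum of chain genes among Pv+ cells (cell 3), the highest among VGT3+ cells (cell 1) and neither among Sst+ cells (cell 4).

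Reads of some genes could be split between near-identical copies. Of the 80 genes, 35 shared no 50-base exon window with another annotated gene, and only Atp5l (84.8%) and Atp5o (50.3%) shared at least 50% of their windows, so that their levels are uncertain. Atp5h (47.9%), Uqcrb (43.4%), Ndufs3 (39.7%) and Cox5a (32.0%) shared a smaller part. Read depth is not carried by TPM and is unknown here, so the number of cells and detected genes set the limit on precision, and a gene listed at 0 may have been missed.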

How the data were processed

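The authors made cDNA with SMART-Seq HT and Nextera XT kits, aligned paired reads to GRCm38 with HISAT2 2.1.0, counted them per Ensembl gene with HTSeq and deposited 1 table of TPM, which they computed with BioMart gene lengths. The table has 43629 genes and 15 cells, and its read depth is unknown. The chain genes, lists and rules were chosen with earlier results of these data known. Differences between types were those of mean log2(TPM + 1) over genes averaging 1 TPM or more (Python 3.11.15 with pandas 2.3.3 and numpy 2.4.6), and the script was tested on simulated data. Each cell is 1 sample with no named animal, so no p-value was computed, and at least 2-fold was the threshold. Size factors were medians of ratios over 1709 genes found in every cell. The genes named with values were, for each pair of types, the 8 most positive and the 8 most negative, the highest of each complex, complex II, cytochrome c, the catalytic core of complex I (1 gene of it is counted but not reported here) and isoform families. Those of non-overlapping groups, those whose difference alone is given and Cox6b1, Atp5a1, Atp5c1, Cox7c, Uqcrb, Atp5j and Atp5b were added after their values were seen. Exon lengths, positions and 50-base windows came from GENCODE M21. Alternatives were a pseudocount of 0.1, a minimum of 10 TPM or none, medians over cells, size factors, batch G709 alone and omitting each cell. A further one rescaled TPM without the mitochondrially encoded genes and the 10 highest genes, which left 2 chain genes out of the set.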

Additional observations from a re-analysis of the deposited data

Results flagged for a closer look

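In each type the highest and the lowest cell were compared with the gap to the next cell, over 147 groups of 5 cells (40 named genes and measures of the set, except groups at 0 throughout). The gap exceeded 0.71 of the group's range in 12. About 1 in 20 groups would do so by chance if the values were normally distributed. Several groups here hold values of 0 or tied counts, so that rate need not apply, and it was not measured in these data. In Pv+ cells, Cox8b was above 0 in cell 4 alone, at 200.9 TPM, and Cox6b2 in cell 1 alone, at 96.4 TPM. Ndufv1 was lowest in Pv+ cell 5, at 58.0 TPM, and Pv+ cell 4 had 79 genes of the set above 0 where the other Pv+ cells had 78. In VGT3+ cells, Atp5s was far highest in cell 4, at 1093 TPM, Cox8a in cell 5, at 333 TPM, and Cox7a1 was above 0 in cell 2 alone, at 0.223 TPM. In Sst+ cells, Cox6b2 was above 0 in cell 2 alone, at 128.0 TPM, and that cell also stood apart for Cox6b1, at 13888 TPM, and Ndufb2, at 29.4 TPM. Ndufs3 stood apart in Sst+ cell 4, at 23.6 TPM, and Sst+ cell 1 had 71 genes of the set above 0, the fewest of its type.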

How the results depend on the processing

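No median or summed level of the set changed sign under the alternatives listed in the methods. Values of the main comparisons were also counted under these alternatives, other than leaving out each cell. Included as well were detection limits of 1 and 10 TPM, a minimum mean of 100 TPM and leaving out VGT3+ cells 3 and 4. Leaving out Atp5l and Atp5o, which share sequence with other genes, was included too. Of these values, 84 stayed within the spread between cells or within 1.5 times the count, while 13 did not. Leaving out 1 cell at a time gave medians of 0.93 to 1.32 for Pv+ minus VGT3+, 0.78 to 0.96 for Pv+ minus Sst+ and -0.31 to -0.01 for VGT3+ minus Sst+. The counts of genes at least 2-fold higher and lower were then 36 to 49 and 4 to 7, 28 to 39 and 2 to 4, and 6 to 17 and 14 to 19. Summed levels ranged over 168285 to 185135 TPM in Pv+ cells, 76215 to 87448 TPM in VGT3+ cells and 91327 to 100514 TPM in Sst+ cells. In batch G709 alone, 11 genes were at least 2-fold lower in Pv+ than VGT3+ cells (30.6% of all genes) and 17 at least 2-fold higher in VGT3+ than Sst+ cells (29.7%). Size factors gave medians of 1.46 against VGT3+ and 1.23 against Sst+ cells, 1 gene at least 2-fold lower than in Sst+ cells (19.4% of all genes) and a Pv+ sum of 214137 TPM. Medians over cells gave 5 genes at least 2-fold lower in Pv+ than Sst+ cells (20.1% of all genes). In alternatives chosen after seeing the data, a minimum mean of 100 TPM, which tests fewer genes, gave 3 genes at least 2-fold lower in Pv+ than VGT3+ cells (286 of all 1146 genes) and 7 at least 2-fold higher in VGT3+ than Sst+ cells (223 of 1146). Leaving out VGT3+ cells 3 and 4 gave medians of 0.66 for Pv+ minus VGT3+ and 0.18 for VGT3+ minus Sst+, with 17 genes at least 2-fold higher (30.5% of all genes) and 10 at least 2-fold lower (19.4%) for VGT3+ minus Sst+. Apart from fewer genes or cells, the cause was not tested. Under all of these settings, 39 of the 43 genes at least 2-fold higher in Pv+ than VGT3+ cells and 34 of the 36 at least 2-fold higher than in Sst+ cells kept their direction. The exceptions were Atp5s (down to -1.97), Ndufa9 (-1.12), Cox6b2 (0) and Cox8b (0) against VGT3+ cells, and Ndufa9 (-0.93) and Cox8b (0) against Sst+ cells. No paired analysis was possible because the cell numbers only name the cells and no test between types was made.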
